A study of Mus musculus with 11 samples.

Results

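The glycolytic enzymes examined here were the products of 10 genes, Hk1, Gpi1, Pfkm, Pfkp, Aldoa, Aldoc, Pgk1, Eno2, Pkm and Ldha, and they were matched by symbol in the gene counts of mouse cerebral cortex. They made up 10 of the 53700 gene identifiers counted and 10 of the 17626 genes tested between genotypes. The rule names them and uses no measured value, but it was written with earlier results of these data known. RNA was read near its poly(A) end by QuantSeq 3′ mRNA-seq in 11 female mice aged 8 months and labelled as strain C57BL/6. All 11 carried the 5XFAD transgenes, mutant human genes of inherited Alzheimer's disease expressed from the neuronal Thy1 promoter, so the mice are a model of amyloid deposition and both groups held amyloid. Abi3, which encodes an actin-regulating adaptor that is enriched in microglia, was intact in 6 mice (Abi3+/+) and deleted as a germline null in every cell in 5 mice (Abi3-/-). The 5XFAD line was purchased on a mixed B6SJL background and the null allele was made in C57BL/6N, and the study's genotyping found the naturally occurring SJL coding variant of Trem2 in the heterozygous state in the mice it kept. The tissue was the cortex of the right hemisphere of PBS-perfused animals, with each library made from 1 mouse.

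Glycolysis splits glucose into pyruvate in the cytosol and yields ATP and NADH. Hexokinase traps glucose as glucose 6-phosphate, phosphofructokinase commits it to the pathway, and pyruvate kinase makes the last ATP. Lactate dehydrogenase then interconverts pyruvate and lactate. In brain, several steps are shared out between isozymes of different cell types: Aldoc is a classic astrocytic aldolase and Aldoa the widely expressed form, whereas Eno2 is the neuronal enolase and Eno1 the widely expressed form. Astrocytes are commonly described as the more glycolytic cells and as a source of lactate for neurons. Microglia can also raise glycolysis when activated, but they are a small part of cortical RNA.

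The promoters of 2 pairs of enzymes are printed because the reads of each pair varied together across the animals, Aldoa against Aldoc and Eno2 with Pkm. Each sequence runs 5′ to 3′ on the strand of the gene, from 250 bases before to 50 bases after the start of the canonical transcript in the GENCODE annotation of GRCm39. The windows were chr7:126398377-126398676 on the reverse strand for Aldoa, chr11:78213544-78213843 on the forward strand for Aldoc, chr6:124746587-124746886 on the reverse strand for Eno2 and chr9:59563385-59563684 on the forward strand for Pkm. Capitals mark, on either strand, the core of the hypoxia response element (ACGTG or GCGTG), the GC box (GGGCGG) and the TATA box (TATAAA).
Aldoa: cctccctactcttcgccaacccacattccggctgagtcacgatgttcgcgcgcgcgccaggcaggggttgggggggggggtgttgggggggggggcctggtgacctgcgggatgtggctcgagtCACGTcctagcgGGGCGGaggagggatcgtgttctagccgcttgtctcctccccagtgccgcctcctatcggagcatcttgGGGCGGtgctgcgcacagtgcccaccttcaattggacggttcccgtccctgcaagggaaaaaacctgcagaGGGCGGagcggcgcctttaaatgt
Aldoc: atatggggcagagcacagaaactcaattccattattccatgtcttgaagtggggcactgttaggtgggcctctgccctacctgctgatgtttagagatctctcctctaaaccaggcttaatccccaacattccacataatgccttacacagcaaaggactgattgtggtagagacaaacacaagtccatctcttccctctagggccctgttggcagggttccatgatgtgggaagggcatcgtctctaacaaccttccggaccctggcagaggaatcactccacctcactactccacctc
Eno2: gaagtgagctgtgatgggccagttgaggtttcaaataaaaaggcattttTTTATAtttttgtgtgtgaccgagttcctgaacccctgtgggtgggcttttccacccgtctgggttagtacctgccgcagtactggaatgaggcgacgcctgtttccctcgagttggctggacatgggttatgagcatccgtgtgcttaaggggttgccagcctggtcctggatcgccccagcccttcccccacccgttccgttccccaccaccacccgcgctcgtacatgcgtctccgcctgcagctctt
Pkm: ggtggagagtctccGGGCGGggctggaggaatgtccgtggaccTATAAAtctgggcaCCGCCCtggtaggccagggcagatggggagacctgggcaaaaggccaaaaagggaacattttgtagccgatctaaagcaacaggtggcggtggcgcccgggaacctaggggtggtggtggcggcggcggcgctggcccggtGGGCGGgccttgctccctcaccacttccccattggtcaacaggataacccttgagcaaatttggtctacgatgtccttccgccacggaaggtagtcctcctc
The Aldoa window held 1 hypoxia core and 3 GC boxes, the Pkm window 3 GC boxes and 1 TATA box, the Eno2 window 1 TATA box, and the Aldoc window none of these letters. Over all 10 enzymes, the hypoxia core was present in 6 of 10 windows, against 47.9% of 21626 promoters of protein-coding genes of the same length. The Ldha window held 8 copies, Pfkp 3, Pfkm and Pgk1 2 each, and Hk1 and Aldoa 1 each. The E-box CACGTG, which contains ACGTG, was present in 2 of 10 windows (Pfkp and Ldha) and in 7.9% of promoters, the GC box in 5 of 10 and 42.6%, and the TATA box in 2 of 10 and 13.2%. These are matches of letters and not measured sites.

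The libraries held 3202310 to 5501958 reads in genes, 4213426 ± 958976 (SD, n = 6) in Abi3+/+ and 3457200 ± 301866 (SD, n = 5) in Abi3-/- mice (exact permutation test, two-sided, p = 0.152). Abi3 itself (ENSMUSG00000018381) had 10 to 38 raw counts in the Abi3+/+ mice and 0 to 2 in the Abi3-/- mice, 4 of which had 0. The reads outside annotated genes, per 100 reads in genes, were 65.86 ± 3.671 (SD, n = 6) in Abi3+/+ and 54.0 ± 4.994 (SD, n = 5) in Abi3-/- libraries, a difference of -11.9 (exact permutation test, two-sided, p = 0.00649, 0.013 after Benjamini-Hochberg adjustment over both library measures). Neuronal and astrocytic markers were abundant in every library. The 5 choroid plexus markers summed to 3531 normalized counts in Abi3+/+ replicate 4, 1912 in Abi3-/- replicate 1 and 2306 in Abi3-/- replicate 5, against 63.01 to 171.9 in the other 8 libraries, so these reads were present in animals of both genotypes. A normalized count is a raw count divided by the size factor that DESeq2 gives the library.

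To ask whether loss of Abi3 altered the glycolytic program of amyloid-bearing cortex, the enzymes were compared between genotypes with DESeq2 in a fit across all genes. None of the 10 enzymes passed the threshold of an adjusted p at or below 0.05 (0 of 10), against 0.539% of all genes tested (95 of 17626). At an unadjusted p under 0.05 there was 1 of 10, Aldoa, against 8.58% of all genes. The other tools run, edgeR and limma, also called 0 of 10. The animals of the genotypes overlapped in all 10 enzymes (0 of 10 without overlap, against 1.04% of all genes). The estimates were above 0 for 6 enzymes and below 0 for 4, with a median log2 fold change of 0.018, beside -0.003 over all genes tested. Fold changes are Abi3-/- over Abi3+/+ throughout. The 10 enzymes together took 21.13 ± 0.6755 (SD, n = 6) of every 10000 reads in genes in Abi3+/+ mice and 20.92 ± 0.802 (SD, n = 5) in Abi3-/- mice, with ranges of 20.15 to 21.86 and 20.12 to 21.9.

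The intervals of this fit give the size of difference it leaves room for. Apart from Pgk1, the 95% intervals of the other 9 enzymes reached at most 0.34 on the log2 scale in either direction, a 1.27-fold difference. The interval held 0 for 9 of the 10 enzymes, Aldoa being the exception. With the reads outside genes as a covariate the Ldha estimate moved from -0.039 to -0.255, so the bound holds for the fit on genotype alone. In bulk tissue, less RNA per cell and fewer cells of a type cannot be told apart, and this holds for each enzyme below. Without the 3 libraries that held choroid plexus reads, 0 of 10 enzymes were called as well, and the log2 fold changes that moved most were those of Hk1, Gpi1 and Eno2, to 0.148, 0.125 and 0.003.

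**Figure D1:**
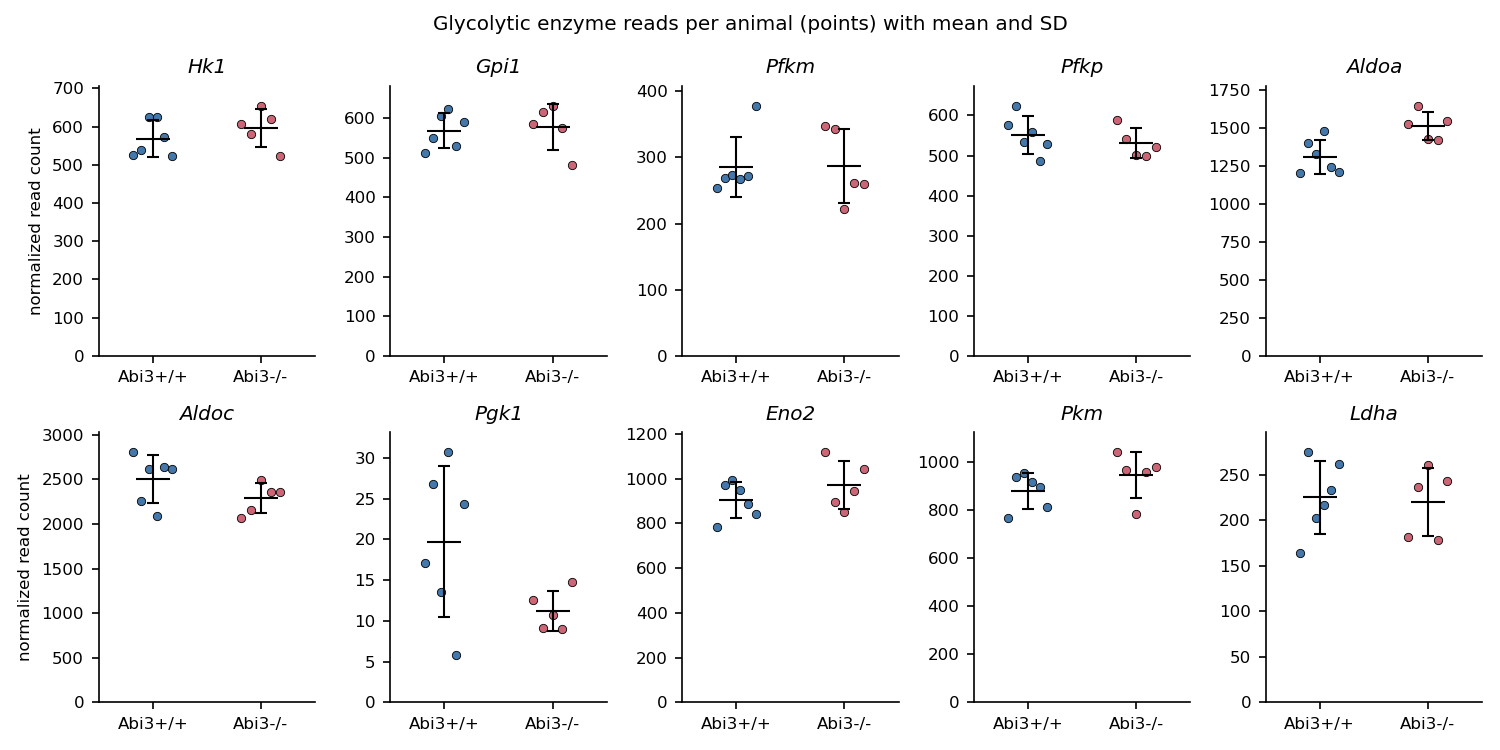
Normalized read counts (vertical axes, starting at 0) of the 10 enzymes in each Abi3+/+ mouse (blue points, n = 6) and each Abi3-/- mouse (red points, n = 5), with the mean and SD as black bars. The genotypes overlap in every panel, and Aldoa is the panel where they overlap least, with Abi3-/- mice from 1420 and Abi3+/+ mice up to 1478.

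Hk1 (chromosome 10, 62104621 to 62215687, reverse strand), the main hexokinase of brain, had 569.0 ± 47.41 (SD, n = 6) normalized counts in Abi3+/+ and 596.7 ± 48.86 (SD, n = 5) in Abi3-/- mice. The lowest, median and highest Abi3+/+ mice were at 523.7, 556.1 and 626.2, and the Abi3-/- mice were at 607.2, 579.8, 654.1, 618.9 and 523.5. The lowest value of each genotype was nearly the same, and the log2 fold change was 0.07 (95% interval -0.10 to 0.23, DESeq2 adjusted p = 0.81).

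Gpi1 (chromosome 7, 33900755 to 33929780, reverse strand), the isomerase that turns glucose 6-phosphate into fructose 6-phosphate, averaged 568.0 ± 44.39 normalized counts (SD, n = 6) in Abi3+/+ and 577.3 ± 58.28 (SD, n = 5) in Abi3-/- mice. Abi3+/+ mice ran from 512.5 through a median of 569.3 to 623.6, and Abi3-/- mice were at 585.2, 616.1, 630.3, 573.7 and 481.4. The Abi3-/- group held both the lowest and the highest mouse, and the log2 fold change was 0.02 (95% interval -0.15 to 0.20, DESeq2 adjusted p = 0.947).

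Phosphofructokinase was represented by its muscle-type gene Pfkm (chromosome 15, 97990451 to 98031417, forward strand) and its platelet-type gene Pfkp (chromosome 13, 6629798 to 6698970, reverse strand). Pfkm averaged 285.6 ± 45.62 normalized counts (SD, n = 6) in Abi3+/+ and 287.0 ± 55.97 (SD, n = 5) in Abi3-/- mice, with Abi3+/+ mice from 254.5 through a median of 270.3 to 377.7 and Abi3-/- mice at 348.2, 343.4, 222.0, 262.0 and 259.5. A single Abi3+/+ mouse and a pair of Abi3-/- mice stood above the rest. Its log2 fold change was 0.01 (95% interval -0.25 to 0.28, DESeq2 adjusted p = 0.988), and the sign turned under several alternatives. Pfkp had 550.9 ± 46.99 (SD, n = 6) and 530.3 ± 37.19 (SD, n = 5), with Abi3+/+ mice from 486.0 through a median of 545.7 to 623.6 and Abi3-/- mice at 589.4, 540.4, 501.3, 498.1 and 522.3. The Abi3-/- values lay inside the Abi3+/+ range, with a log2 fold change of -0.05 (95% interval -0.22 to 0.11, DESeq2 adjusted p = 0.861).

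The aldolases showed the largest difference among the well-counted enzymes. Aldoa (chromosome 7, 126393822 to 126399923, reverse strand) had 1204, 1401, 1328, 1478, 1244 and 1213 normalized counts in Abi3+/+ replicates 1 to 6 and 1529, 1645, 1425, 1420 and 1548 in Abi3-/- replicates 1 to 5. Every Abi3-/- mouse was above 5 of the 6 Abi3+/+ mice, and the overlap came from Abi3+/+ replicate 4 alone. The means were 1311 ± 111.2 (SD, n = 6) and 1513 ± 94.06 (SD, n = 5), a log2 fold change of 0.21 (SE 0.0705, 95% interval 0.07 to 0.34). The DESeq2 p was 0.00352 before and 0.121 after adjustment over all genes, so Aldoa did not pass. Leaving out Abi3+/+ replicate 2 gave Aldoa a log2 fold change of 0.23 with a DESeq2 adjusted p of 0.0461, and leaving out Abi3+/+ replicate 4 gave 0.24 with 0.0266. Without each of the other 9 animals in turn, the DESeq2 adjusted p was 0.0954 to 0.346, the highest without Abi3-/- replicate 2. The adjusted p was 0.44 with edgeR and 0.351 with limma. With the reads outside genes as a covariate, the Aldoa estimate was 0.09, and with the 3 libraries that held choroid plexus reads left out it was 0.23 (DESeq2 adjusted p = 0.201).

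Aldoc (chromosome 11, 78213619 to 78218889, forward strand) had 2802, 2254, 2618, 2094, 2644 and 2614 normalized counts in Abi3+/+ replicates 1 to 6 and 2072, 2160, 2490, 2354 and 2364 in Abi3-/- replicates 1 to 5. A group of 4 Abi3+/+ mice lay above all Abi3-/- mice, and Abi3+/+ replicates 2 and 4 lay among them. The means were 2504 ± 269.9 (SD, n = 6) and 2288 ± 168.5 (SD, n = 5), a log2 fold change of -0.13 (SE 0.0768, 95% interval -0.28 to 0.02, DESeq2 adjusted p = 0.51). Abi3 lies on chromosome 11 as well, at 95720900 to 95733302, and an effect of the shared chromosome was not tested.

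Eno2 (chromosome 6, 124736247 to 124746636, reverse strand) had 783, 973.6, 993.6, 951.6, 885.8 and 843.2 normalized counts in Abi3+/+ and 1117, 895.9, 852.3, 945.3 and 1044 in Abi3-/- mice. A pair of Abi3-/- mice stood above all others and the remaining 3 lay inside the Abi3+/+ range. The means were 905.1 ± 82.22 (SD, n = 6) and 970.8 ± 108.3 (SD, n = 5), a log2 fold change of 0.10 (95% interval -0.07 to 0.27, DESeq2 adjusted p = 0.69).

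Pkm (chromosome 9, 59563364 to 59586663, forward strand), whose splice forms PKM1 and PKM2 share their 3′ end and are counted here as 1 gene, had 768.2, 938.1, 956, 919.3, 895.9 and 813.6 normalized counts in Abi3+/+ and 1041, 968.6, 784.2, 958.8 and 982.1 in Abi3-/- mice. In Abi3-/- mice 4 of 5 values lay above the highest Abi3+/+ value, and the fifth was near the lowest. The means were 881.8 ± 74.62 (SD, n = 6) and 947.0 ± 96.48 (SD, n = 5), a log2 fold change of 0.10 (95% interval -0.06 to 0.26, DESeq2 adjusted p = 0.674). With the reads outside genes as a covariate, the estimate was -0.03 for Eno2 and -0.02 for Pkm.

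Ldha (chromosome 7, 46490899 to 46505061, forward strand), which encodes the lactate dehydrogenase subunit that favors lactate production, averaged 225.3 ± 40.26 normalized counts (SD, n = 6) in Abi3+/+ and 220.0 ± 37.59 (SD, n = 5) in Abi3-/- mice. Abi3+/+ mice ran from 164.4 through a median of 224.8 to 274.3, and Abi3-/- mice were at 181.4, 236.3, 260.2, 178.4 and 243.5. The Abi3-/- values lay inside the Abi3+/+ range, with a log2 fold change of -0.04 (95% interval -0.32 to 0.25, DESeq2 adjusted p = 0.947).

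Pgk1 (chromosome X, 105230706 to 105247305, forward strand), the first enzyme of the pathway to return ATP, was counted with so few reads that the comparison is of another kind. Raw Pgk1 counts were 15, 40, 13, 36, 8 and 23 in Abi3+/+ and 12, 9, 9, 8 and 13 in Abi3-/- mice. The Abi3-/- mice fell within a narrow range near the bottom of a wide Abi3+/+ range. The normalized means were 19.71 ± 9.263 (SD, n = 6) and 11.25 ± 2.458 (SD, n = 5), a log2 fold change of -0.81 (95% interval -1.69 to 0.07) with an unadjusted DESeq2 p of 0.0705. The estimate was -0.399 with the reads outside genes as a covariate and -1.014 to -0.639 when 1 animal was left out. DESeq2 gave Pgk1 no adjusted p, because its mean was under the filtering threshold of 70.39 normalized counts.

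**Figure D2:**
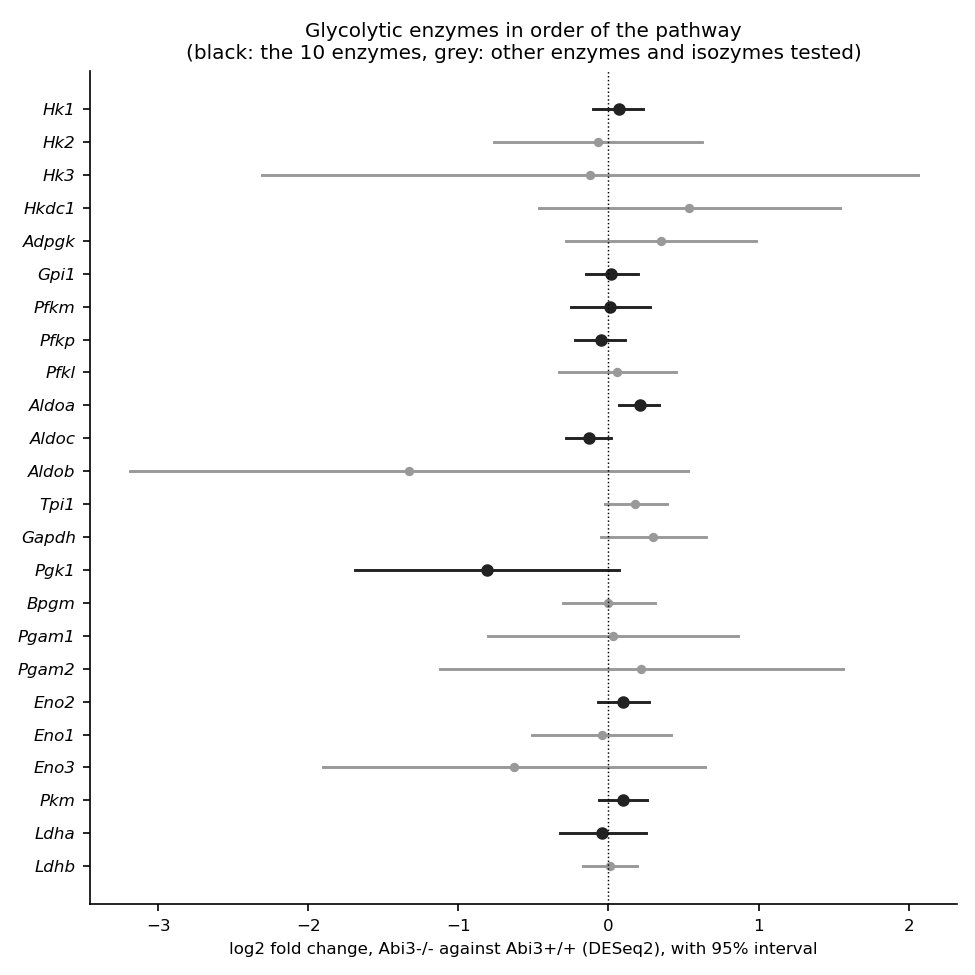
Log2 fold changes (horizontal axis, Abi3-/- against Abi3+/+, DESeq2) with 95% intervals as lines, for the 10 enzymes in black and 14 further glycolytic enzymes and isozymes in grey, in pathway order. The interval of Aldoa, 0.07 to 0.34, is the only black line that leaves out 0, and the Pgk1 interval of -1.69 to 0.07 is the widest black line.

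The counting method bears on how much of each transcript was seen. The authors' counter dropped reads with more than 1 alignment, so the last 500 bases of each canonical transcript were searched for 76-base windows, the length of the reads, that occur exactly at a second place in GRCm39. Of the 425 windows of Pgk1, 350 (82.4%) had a second place. The annotation lists Pgk1 pseudogenes, among them Pgk1-rs7, Gm5537, Gm21007 and Pgk1-ps1, each of which was counted at 0 in every animal. Their matches to the Pgk1 end covered 82, 78, 77 and 77 bases, at 100%, 100%, 96.1% and 97.4% identity. Matches this short cannot hold most of the 350 windows, and the genes at those second places are not reported here. The share of windows with a second place was 14.4% for Pkm, 8.0% for Gpi1, 2.1% for Ldha and 1.6% for Pfkm. It was 0 of 425 windows for Hk1, Pfkp, Aldoa, Aldoc and Eno2. The level of Pgk1 is therefore uncertain. Among the enzymes outside the 10, the shares were 100% for Gapdh, 99.5% for Pgam1 and 61.4% for Eno1, and these abundant enzymes of the lower pathway had mean normalized counts of only 89.59, 16.56 and 66.15. Ldhb and Tpi1 had shares of 24.2% and 22.4% with mean normalized counts of 547.7 and 512.7. The part of repeated ends in these levels was not tested. Short stretches of the ends of Gpi1, Pfkm and Pkm matched parts of Eprs1, Ppp1r14a, Cdc42ep2 and 6030443J06Rik, of which Cdc42ep2 was on the same strand. The Pfkp end overlaps Pitrm1 on the opposite strand, which the stranded counting kept apart. Gm57854 shares the last 500 bases of the Aldoa transcript on the same strand and was counted at 0 in all animals. The authors' counter gives a read that lies alike in 2 genes to neither. This 0 therefore does not show that Aldoa was fully counted, and the loss of Aldoa reads in this way was not tested.

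**Figure D3:**
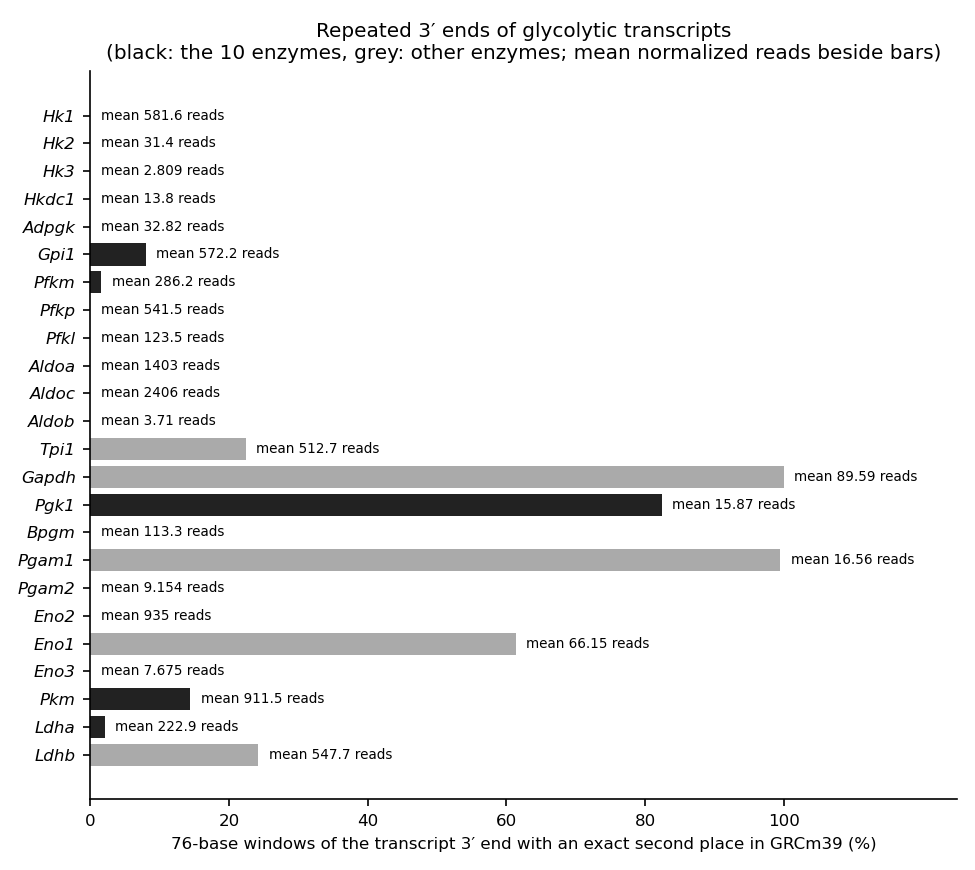
Share of 76-base windows in the last 500 transcript bases that have an exact second place in GRCm39 (horizontal axis, %), for the 10 enzymes in black and other glycolytic enzymes in grey, with the mean normalized count beside each bar. Pgk1 is the only black bar above 14.4%, and it has the fewest reads of the 10 enzymes, a mean of 15.87.

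Isozyme balance was compared as the log2 ratio of 2 raw counts within each library, a measure that does not depend on scaling between libraries. The log2 ratio of Aldoa to Aldoc was -1.22, -0.69, -0.98, -0.50, -1.09 and -1.11 in Abi3+/+ replicates 1 to 6 and -0.44, -0.39, -0.80, -0.73 and -0.61 in Abi3-/- replicates 1 to 5. All 5 Abi3-/- mice were above the Abi3+/+ mean, and 2 of the 6 Abi3+/+ mice lay among them. The means were -0.93 ± 0.277 (SD, n = 6) and -0.60 ± 0.179 (SD, n = 5), a difference of 0.33 or 1.26-fold (95% interval -0.004 to 0.67, exact permutation test over 462 splits, two-sided, p = 0.0519, 0.26 after Benjamini-Hochberg adjustment over 5 ratios). The smallest p this test can give is 0.00216. The unadjusted exact p fell to 0.0397 without Abi3+/+ replicate 2, 0.0238 without Abi3+/+ replicate 4 and 0.0429 without Abi3-/- replicate 3, and was 0.0619 to 0.11 without each of the other 8 animals in turn.

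The other 4 ratios differed less between genotypes than within them. The difference was 0.05 for Pfkm to Pfkp (95% interval -0.28 to 0.38, exact permutation p = 0.732) and -0.04 for Ldha to Ldhb, the subunit pair of lactate dehydrogenase (-0.48 to 0.42, exact permutation p = 0.833). It was 0.15 for Eno2 to Eno1 (-0.44 to 0.67, exact permutation p = 0.504) and 0.09 for Hk1 to Hk2, the inducible hexokinase (-0.81 to 0.98, exact permutation p = 0.825). The adjusted p was 0.833 for each of these 4 by the same exact test. Eno1 and Hk2 had few reads, with mean normalized counts of 66.15 and 31.4.

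**Figure D4:**
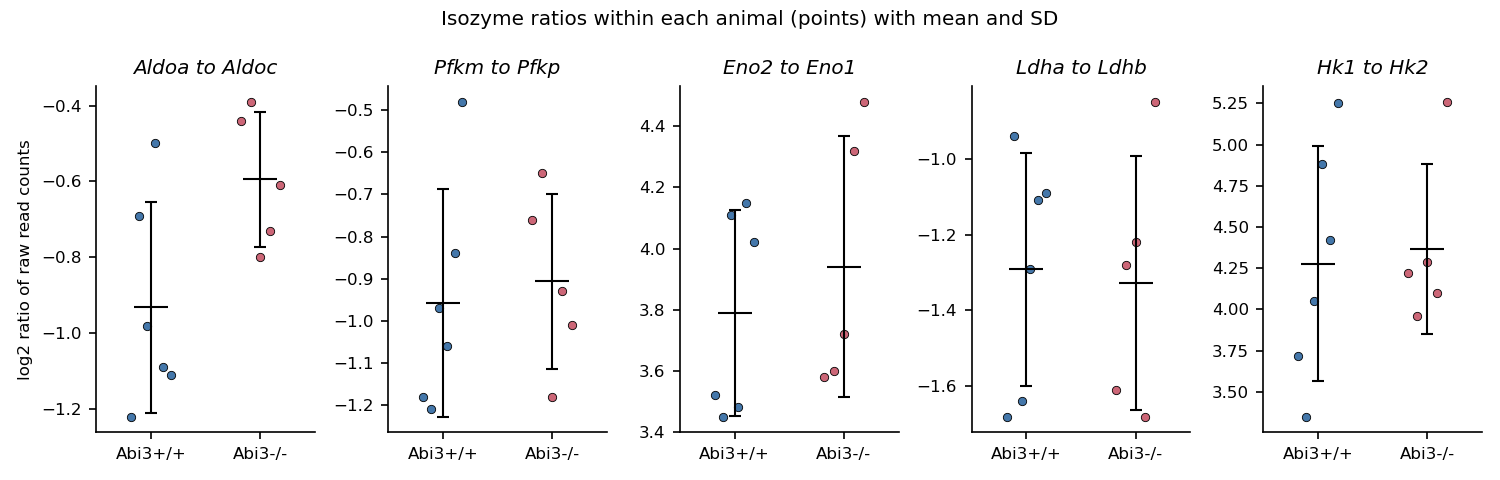
Log2 ratio of the raw counts of 2 isozymes within each library (vertical axes, each on its own scale), for Abi3+/+ mice in blue (n = 6) and Abi3-/- mice in red (n = 5), with mean and SD as black bars. The Aldoa to Aldoc means are -0.93 and -0.60, and the genotypes overlap in every panel.

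The spread between animals was read beside the error of counting alone. For Aldoc, the coefficient of variation within genotypes was 9.58% and counting alone would give 2.01%. For Aldoa these were 7.41% and 2.63%, for Eno2 10.1% and 3.21%, and for Pkm 9.33% and 3.25%. Pfkm and Ldha varied more, by 17.6% and 17.5% with counting errors of 5.82% and 6.55%. For Pgk1 the spread was 44.7% and the counting error 24.3%.

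Variation between animals was next compared between enzymes. Among the 9 enzymes other than Pgk1 there are 36 pairs, and 2 pairs had a Pearson correlation across the 11 animals that passed Benjamini-Hochberg adjustment over the 36 (permutation test with 100000 permutations on log2(normalized count + 1)). Eno2 and Pkm rose and fell together, with r = 0.90 (permutation p = 8e-05, adjusted p = 0.00288) and Spearman's rho = 0.85 (permutation p = 0.00192, adjusted p = 0.0691). Their r was 0.80 without the 2 animals farthest from the median of Eno2, 0.88 after subtracting the genotype means and 0.98 within the Abi3+/+ mice. It was 0.87 over the 8 libraries without choroid plexus reads. Aldoa and Aldoc moved in opposite directions, with r = -0.85 (permutation p = 0.0015, adjusted p = 0.027) and rho = -0.78 (permutation p = 0.00648, adjusted p = 0.0853). Here r was -0.76 without the 2 most extreme animals, -0.86 after subtracting the genotype means, -0.94 within the Abi3+/+ mice and -0.90 over the 8 libraries. Neither pair passed adjustment by rank. Next in order came the upper-pathway pair Hk1 and Gpi1, with r = 0.73 (permutation test, adjusted p = 0.137).

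**Figure D5:**
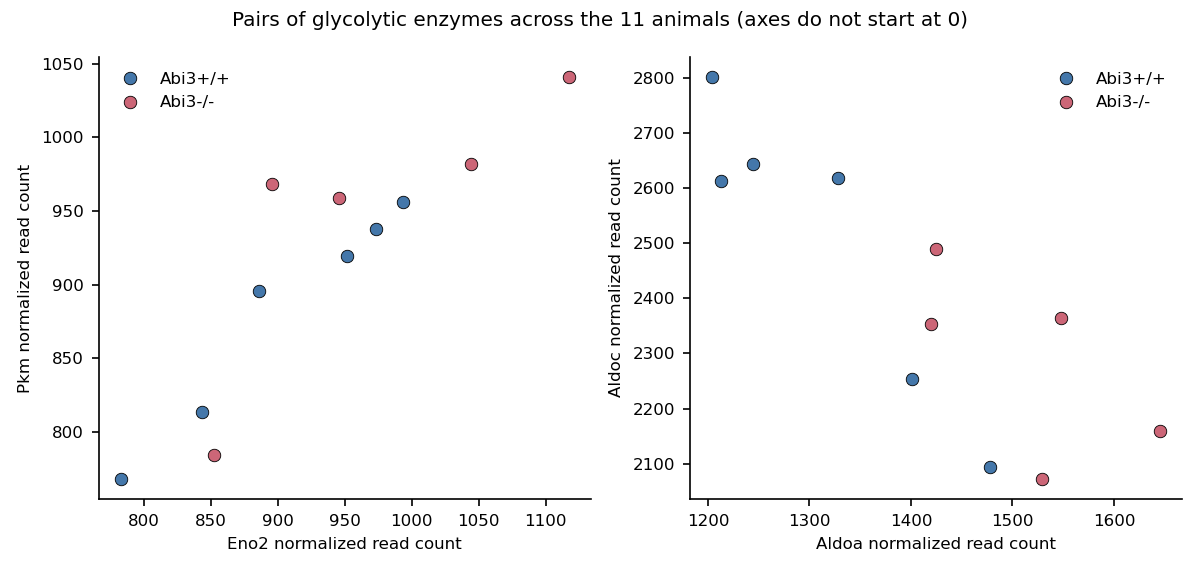
Normalized read counts of Pkm against Eno2 and of Aldoc against Aldoa, each point being 1 of the 11 mice (Abi3+/+ in blue, Abi3-/- in red, axes not starting at 0). Eno2 and Pkm rise together (r = 0.90), and Aldoc falls as Aldoa rises (r = -0.85) in mice of both genotypes.

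The aldolases were also set against the summed markers of the cell types that express them, 4 relations chosen after the values had been seen. Each sum adds normalized counts, so the most abundant markers weigh most. Among astrocyte markers, Slc1a2 averaged 9686 and Slc1a3 1519, against 57.15 for Aldh1l1. Among neuronal markers, Syt1 averaged 10445 and Map2 3978, against 240.2 for Tubb3. Relations with single markers were not tested. Aldoc followed the sum of 7 astrocyte markers (Gfap, Aqp4, Aldh1l1, Slc1a2, Slc1a3, S100b and Gja1), with r = 0.85 (permutation p = 0.00017, adjusted p = 0.00068) and rho = 0.86 (permutation p = 0.0011, adjusted p = 0.0044). This r was 0.83 without the 2 most extreme animals, 0.89 after subtracting the genotype means and 0.88 over the 8 libraries without choroid plexus reads. The astrocyte sum was lowest in Abi3+/+ replicate 4, at 12243, and Abi3-/- replicate 1, at 12874, which were also the lowest animals for Aldoc. Aldoa had r = 0.67 with the sum of 8 neuronal markers (permutation test, adjusted p = 0.0528, rho = 0.68 with adjusted p = 0.0484), which fell to 0.45 after subtracting the genotype means, and r = -0.56 with the astrocyte sum (permutation test, adjusted p = 0.0903, rho = -0.63 with adjusted p = 0.0589). Aldoc had r = -0.38 with the neuronal sum (permutation test, adjusted p = 0.25).

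Between genotypes, the astrocyte sum was 13716 ± 771.5 (SD, n = 6) in Abi3+/+ and 13517 ± 453.6 (SD, n = 5) in Abi3-/- mice, with ranges of 12243 to 14388 and 12874 to 13963. The neuronal sum was 19911 ± 983.4 (SD, n = 6) and 20989 ± 743.5 (SD, n = 5), with ranges of 18943 to 21217 and 20172 to 22201. Of 48 cell type markers tested, 0 were called by DESeq2 and 4 had an unadjusted p under 0.05, where 8.58% of all genes tested did, with the smallest adjusted p, 0.0783, for the microglial complement gene C1qa. Of the neuronal markers, 5 had estimates above 0 and 3 below, and of the astrocytic markers 2 above and 5 below. The oligodendrocyte markers had 6 above and 0 below (median log2 fold change 0.146), the microglial markers 6 above and 1 below (0.184), the striatal neuron markers 0 above and 6 below (-0.24) and the red blood cell markers 0 above and 4 below (-1.101). The endothelial markers had 2 above and 3 below and the choroid plexus markers 3 above and 2 below. The part of cell composition in the Aldoa and Aldoc estimates was not tested.

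The rest of the pathway gave the same count. Of 20 further glycolytic enzymes and isozymes, 14 could be tested, 0 were called and 0 had an unadjusted p under 0.05 in DESeq2, with a median log2 fold change of 0.023 and 9 estimates above 0 against 5 below. Ldhb averaged 545.9 ± 44.50 normalized counts (SD, n = 6) in Abi3+/+ and 549.8 ± 63.99 (SD, n = 5) in Abi3-/- mice, a log2 fold change of 0.01 (95% interval -0.17 to 0.19). Triose phosphate isomerase (Tpi1) had 482.9 ± 61.16 (SD, n = 6) and 548.3 ± 66.55 (SD, n = 5), a log2 fold change of 0.18 (95% interval -0.02 to 0.39, DESeq2 adjusted p = 0.486). The 6 that could not be tested, the testis or liver forms Gapdhs, Pgk2, Pklr and Ldhc among them, had at most 4 raw counts in any animal.

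Beyond glycolysis, 92 genes of 10 neighboring pathways were read from the same fit. Of the 87 tested, 0 were called by DESeq2 and 11 had an unadjusted p under 0.05, where 8.58% of all genes tested did, with the smallest adjusted p, 0.133, for the hypoxia-induced gene Ndrg1. Among the 8 carriers of glucose and lactate, 6 estimates were above 0 and 1 had an unadjusted p under 0.05. That was the neuronal glucose transporter Slc2a3, at 274.9 ± 25.78 (SD, n = 6) and 319.3 ± 36.25 (SD, n = 5) normalized counts (log2 fold change 0.21, DESeq2 adjusted p = 0.407), whereas basigin (Bsg), the chaperone of lactate carriers, was at 813.0 ± 82.17 (SD, n = 6) and 782.2 ± 68.27 (SD, n = 5). The regulators of phosphofructokinase, Pfkfb3 and Tigar among them, had 5 genes tested, 2 with estimates above 0 and 3 below, with log2 fold changes of 0.03 for Pfkfb3 and 0.26 for Tigar.

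Downstream of pyruvate, 11 of 13 genes for its entry into mitochondria had estimates above 0, with a median log2 fold change of 0.211, and 1 had an unadjusted p under 0.05. The pyruvate dehydrogenase subunits Pdha1 and Pdhb had log2 fold changes of 0.06 and 0.22. In the citric acid cycle 13 of 16 estimates were above 0, with a median of 0.10 and 1 unadjusted p under 0.05. Malate dehydrogenase (Mdh2) was at 726.9 ± 44.57 (SD, n = 6) and 781.7 ± 77.96 (SD, n = 5) normalized counts. The shuttles that carry NADH electrons into mitochondria had 7 of 9 estimates above 0 and 2 with an unadjusted p under 0.05, with log2 fold changes of 0.03 for Mdh1 and 0.18 for Gpd2 (DESeq2 adjusted p = 0.391). Over all genes tested the median was -0.003, and 8.58% had an unadjusted p under 0.05. With the reads outside genes as a covariate, 3 of all genes were called, against 95 without it. The estimates of these lists in that fit are not reported here, and a joint shift of a list was not tested.

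In glycogen metabolism, 7 of 9 tested genes had estimates below 0, with a median log2 fold change of -0.263, beside -0.003 over all genes. There were 3 genes lower at an unadjusted p under 0.05, where 8.58% of all genes had such a p in either direction. Among the 3 were the phosphorylase genes Pygm and Pygl, which were named after their values were seen. Phosphorylase releases glucose units from glycogen. Pygm averaged 65.73 ± 9.98 normalized counts (SD, n = 6) in Abi3+/+ and 42.72 ± 9.338 (SD, n = 5) in Abi3-/- mice. Its log2 fold change was -0.63 (95% interval -1.06 to -0.20), with no overlap between genotypes. The genotypes nearly touched, with the lowest Abi3+/+ mouse at 56.23 and the highest Abi3-/- mouse at 56.1. A lack of overlap was seen for 1 of the 87 genes, against 1.04% of all genes tested. DESeq2 gave Pygm no adjusted p because of its low mean. Pygl had a log2 fold change of -1.16 with no adjusted p. The brain phosphorylase gene Pygb had a log2 fold change of -0.17 (DESeq2 adjusted p = 0.64) and Ugp2, which makes the glucosyl donor, 0.14.

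In the remaining lists 0 genes were called by DESeq2. In the pentose phosphate pathway 4 of 7 estimates were above 0, with log2 fold changes of 0.02 for both Taldo1 and Tkt. For gluconeogenesis 3 of 6 genes could be tested, with log2 fold changes of 0.07 for G6pc3 and 0.18 for Pcx. Of the 8 genes for hypoxia-inducible factors and their regulators, 5 estimates were above 0, among them Egln1 with a log2 fold change of 0.27 (DESeq2 adjusted p = 0.387) and Arnt2 with 0.09. Of 9 other hypoxia-induced genes tested, 6 were above 0 and 2 had an unadjusted p under 0.05, where 8.58% of all genes tested did. Ndrg1 was at 146.3 ± 14.76 (SD, n = 6) and 188.5 ± 21.30 (SD, n = 5) normalized counts, with an estimate of 0.37 on the log2 scale, and P4ha1 had a log2 fold change of 0.04.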

How the data were processed

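QuantSeq 3′ mRNA-seq libraries of 11 cortices were analysed (6 Abi3+/+ and 5 Abi3-/-). The authors trimmed adapters and poly(A) with bbduk, aligned 76-base single-end reads to GRCm39 with STAR (version 2.7.3a) and counted uniquely aligned reads per Ensembl gene on the read's strand with HTSeq (version 0.9.1). The tables deposited hold raw read counts for each gene, and no collapsing of PCR copies is stated, so intervals cover the spread between animals but counts are of reads. Of 53700 identifiers, 52610 (98.0%) matched the GENCODE vM39 annotation.

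DESeq2 (version 1.42.0, R version 4.3.3) was run on the counts with genotype as the only term, after the study's methods. Genes with a total of at least 10 entered the fit, those averaging 1.5 normalized counts or more the results, and independent filtering was aimed at an adjusted p of 0.05. Intervals are 95% Wald intervals. At these depths 3 counts corresponded to 0.545 to 0.937 CPM, a floor that covers counting error only. Single values and ratios were compared by exact permutation over all splits of the animals, and relations by permutation with SciPy (version 1.17.1). Second places of read windows were found by exact match to the genome, and near-identical transcripts with BLAST (version 2.17.0). Alternatives were edgeR (version 4.0.16), limma (version 3.58.1), other scalings and filters, the replicate number as a block, the reads outside genes as a covariate, thinned libraries, added copies and leaving out each animal. Leaving out the 3 libraries with choroid plexus reads was chosen after seeing the data.

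The named genes were the 10 enzymes, Abi3, the 2 genes of highest mean count in each pathway list, any list gene past the threshold, and near-identical copies of at least 95% identity over at least 70 bases that averaged 1.5 normalized counts or more. Other genes were named after their values were seen. A few genes covered by this rule are not reported here. The enzymes and lists were chosen with earlier results of these data known. On simulated counts of 17626 genes for Abi3-/- against Abi3+/+, with 200 genes of higher mean count changed by 1 on the log2 scale, DESeq2 recovered 91% and 12.5% of its calls were false, edgeR 89% and 8.72%, limma 82% and 2.38%. The absolute estimates of 9 of the 10 enzymes were under 0.25, and the simulation held no changes that small, so these rates do not apply to them. The labels do not say whether animals shared litters, and of 55 library pairs 0 were identical.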

Additional observations from a re-analysis of the deposited data

Results flagged for a closer look

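Each group of 4 to 10 animals was examined for a single animal far from the rest by Dixon's criterion, over 34 groups (enzymes and isozyme ratios by genotype, and library measures). It marked 2 groups, where chance alone marks about 1 in 20 groups, 1.7 of 34. In Abi3+/+ replicate 6, Pfkm had 377.7 normalized counts, and the nearest Abi3+/+ mouse had 273.0. In Abi3-/- replicate 5, the log2 ratio of Hk1 to Hk2 was 5.26, and the nearest Abi3-/- mouse was at 4.29. The choroid plexus markers were high in that library, and their part in the ratio was not tested.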

How the results depend on the processing

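No glycolytic enzyme was called under any of 13 other settings or without the 3 libraries with choroid plexus reads, and without 1 animal the count was 0 to 1, the call being Aldoa without Abi3+/+ replicate 2 or 4. The other glycolytic enzymes had 0 calls under every alternative run. Over all genes, 95 were called, against 37 with edgeR, 20 with limma, 53 with total counts as size factors (14 higher and 39 lower, against 60 and 35), 57 without independent filtering (29 and 28), 3 with the reads outside genes as a covariate, 27 without the choroid plexus libraries and 46 to 120 without 1 animal. The replicate numbers did not pair the animals (correlations of same-numbered animals' deviations from -0.02 to 0.123, 1 of 5 above 0.1, with 2 of 5 Abi3-/- mice closest to their own number). With the replicate block 33 genes were called, and the block turned Ldha to 0.013 and the Ldha to Ldhb ratio to 0.003 and gave an Aldoa to Aldoc ratio difference of 0.299 (exact permutation test, p = 0.188). Estimates near 0 turned elsewhere: Gpi1 to -0.017 with total counts, Pfkm to -0.029 with limma or total counts, -0.054 with the covariate, -0.01 when thinned and -0.063 without the choroid plexus libraries, Eno2 to -0.033 and Pkm to -0.018 with the covariate, and the Hk1 to Hk2 ratio to -0.044 without the choroid plexus libraries. Without 1 animal the ranges were -0.009 to 0.084 for Gpi1, -0.067 to 0.106 for Pfkm, -0.112 to 0.028 for Ldha, 0.277 to 0.42 for the Aldoa to Aldoc ratio, -0.011 to 0.147 for Pfkm to Pfkp, -0.156 to 0.052 for Ldha to Ldhb and -0.137 to 0.282 for Hk1 to Hk2. The sign was kept for Hk1 (0.033 to 0.113), Pfkp (-0.095 to -0.013), Eno2 (0.045 to 0.143) and Pkm (0.066 to 0.162). It was also kept for the Eno2 to Eno1 ratio (0.018 to 0.244). The cause of these moves was not tested. Total counts moved the median of all genes to -0.041, from -0.003. Few counts, 15.87 to 89.59 normalized on average, limit the precision for Pgk1, Pgam1, Hk2, Eno1 and Gapdh.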
